A study of Mus musculus with 5 samples.

Results

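Fatty acid oxidation was followed in Hdac3-null liver tumours through 42 genes for the enzymes and carriers that activate fatty acids, carry them into mitochondria and break them down in mitochondria and peroxisomes, with genes of ketone body formation. Members were taken as the array rows whose single gene symbol was exactly 1 of these names, and the row with the highest mean over the 5 arrays stood for each gene. Of the 42 genes, 39 were measured in this way among 19938 genes in all. Acsl3 and Cpt1b stand only on probe sets that name several genes, Acsl1 was not matched to a named probe set, and no value is given for these 3.

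Each of the 5 Affymetrix gene arrays read the liver RNA of 1 male mouse, aged about 10 months and kept on regular food. The 2 controls were normal liver with 1 floxed and 1 wild-type Hdac3 allele (Hdac3FL/+; AlbCre+), and the 3 other samples were liver tumours with 1 floxed and 1 null allele (Hdac3FL/-; AlbCre+). All 5 mice carried AlbCre, in which the albumin promoter drives Cre recombinase in hepatocytes, which leaves the hepatocytes of the controls with their wild-type allele alone. Since all null samples were tumours and both controls were normal liver, genotype and tumour cannot be told apart. The deposited values had array medians of 5.66 to 5.77 (log2), and 5 arrays give limited precision. Hdac3, the targeted deacetylase, stood at 8.21 and 8.37 in control livers 1 and 2 and at 6.78, 6.57 and 6.65 in the 3 tumours (log2 change −1.62, 95% confidence interval −1.95 to −1.30; limma adjusted p = 0.00298). Its call was lost without control 1 or control 2 (adjusted p = 0.0505 and 0.0663), and the position of its probes relative to the deleted part was not analysed here.

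Hepatocytes take fatty acids from the blood and link them to coenzyme A through acyl-CoA synthetases. Long chains enter mitochondria through carnitine palmitoyltransferases and are shortened there by repeated rounds of dehydrogenation, hydration, a further dehydrogenation and thiolysis, with electrons passed on by electron transfer flavoprotein. Very long and branched chains are first shortened in peroxisomes, and in fasting the liver turns acetyl-CoA into ketone bodies for other organs. The nuclear receptor PPAR alpha, encoded by Ppara, drives many of these genes by binding repeats of the hexamer AGGTCA spaced by 1 base.

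Promoters of 34 of the 42 genes were matched in RefSeq sequence of build GRCm38.p6, as windows of 300 bases that run from 250 bases before the gene start to 50 after it. This repeat, 2 copies of AGGTCA with any 1 base between them, was searched on both strands and was in 0 of 37 member windows and in 0.0396% of 32851 windows of all genes. A looser form that allows any base at the fourth place of each copy, and so includes the first, was also in 0 of 37 and in 0.381% of all. A lone AGGTCA stood in the 250 bases before the start of Acadm, Acadvl, Cpt1a and Echs1, 10.8% of member windows against 14% of all. GGGCGG, the GC box letters, was in 59.5% of member windows of 250 bases and in 32.7% of all, and CCAAT was in 43.2% and 33.8%. The windows of all genes were not limited to the genes measured on the arrays. These matches are descriptions of letters in short windows.

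The 4 promoters printed first belong to genes that passed the test described next, and the last is the stretch shared by a pair of members that start head to head. Each of the 4 is written 5′ to 3′ on the strand of its gene, and capitals mark the hexamer AGGTCA, the CCAAT box or the GC box on either strand. The 250 bases before Acadsb lie at chr7:131410351-131410600 on the plus strand, those before Acad8 at chr9:26999550-26999799 on the minus strand, those before Eci2 at chr13:34994145-34994394 on the minus strand and those before Acsl4 at chrX:142390536-142390785 on the minus strand. Hadha on the minus strand and Hadhb on the plus strand start 272 bases apart, and the 228 bases at chr5:30155003-30155230 lie within 250 bases of both starts, written here on the plus strand.
Acadsb: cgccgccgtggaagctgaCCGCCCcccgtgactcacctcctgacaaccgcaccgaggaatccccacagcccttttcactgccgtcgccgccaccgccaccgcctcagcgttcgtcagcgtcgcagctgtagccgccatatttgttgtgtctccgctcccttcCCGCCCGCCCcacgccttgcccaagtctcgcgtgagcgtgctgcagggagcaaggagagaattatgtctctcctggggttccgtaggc
Acad8: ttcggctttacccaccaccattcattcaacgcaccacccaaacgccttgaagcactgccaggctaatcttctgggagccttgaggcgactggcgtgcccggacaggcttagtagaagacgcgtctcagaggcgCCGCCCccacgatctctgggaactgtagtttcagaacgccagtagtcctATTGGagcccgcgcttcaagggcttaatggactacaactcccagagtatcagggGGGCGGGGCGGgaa
Eci2: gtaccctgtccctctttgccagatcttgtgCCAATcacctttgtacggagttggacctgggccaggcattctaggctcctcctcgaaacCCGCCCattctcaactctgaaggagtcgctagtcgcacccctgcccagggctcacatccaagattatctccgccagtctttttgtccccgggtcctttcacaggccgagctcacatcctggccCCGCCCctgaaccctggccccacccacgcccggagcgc
Acsl4: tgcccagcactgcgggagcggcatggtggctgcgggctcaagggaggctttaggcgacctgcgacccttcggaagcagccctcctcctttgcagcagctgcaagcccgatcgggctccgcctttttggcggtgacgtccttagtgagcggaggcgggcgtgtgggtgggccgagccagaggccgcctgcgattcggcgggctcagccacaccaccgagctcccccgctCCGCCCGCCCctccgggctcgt
Hadha and Hadhb: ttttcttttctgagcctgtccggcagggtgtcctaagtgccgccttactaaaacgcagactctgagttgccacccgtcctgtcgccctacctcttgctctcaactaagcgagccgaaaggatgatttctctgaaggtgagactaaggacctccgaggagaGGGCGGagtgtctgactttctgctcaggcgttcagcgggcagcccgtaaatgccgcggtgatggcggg
Acadsb held 3 matches of GGGCGG and Acad8 held 3 with 1 CCAAT. Eci2 held 2 with 1 CCAAT, Acsl4 held 2, and the stretch between Hadha and Hadhb held 1. AGGTCA was in 0 of these 5 stretches.

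Few genes of fatty acid oxidation passed the test. Of the 39 measured, 4 fell (Acadsb, Acaa2, Eci2 and Acad8), 2 rose (Acsl4 and Vnn1) and 33 did not pass a limma adjusted p of 0.05, which is 15.4% called against 10.6% of all genes. By direction, 4.96% of all genes fell and 5.6% rose. The members were chosen with earlier results of these data known. Values leaned low without most genes passing: 28 of 39 lay below the control mean (71.8%, against 52.9% of all genes), with a median log2 change of −0.35 against −0.02 for all genes (−0.19 for the members without tumour 3 and −0.60 without tumour 2). Without control 1 or control 2, 0 members rose and 1 fell, and without tumour 3, 4 rose and 4 fell. The groups did not overlap for 44.2% of all genes. All 3 tumours lay under both controls for 16 members (41%, against 23.1% of all genes), and above both for 4 (against 21.1%). Of the called genes, Acadsb and Acad8 encode dehydrogenases of branched-chain amino acid breakdown, Acsl4 activates arachidonate and other polyunsaturated acids, and Vnn1 encodes a pantetheinase. Acaa2 encodes a mitochondrial thiolase, and Eci2 handles unsaturated chains. In bulk tissue, fewer hepatocytes and less RNA per hepatocyte cannot be told apart.

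**Figure D1:**
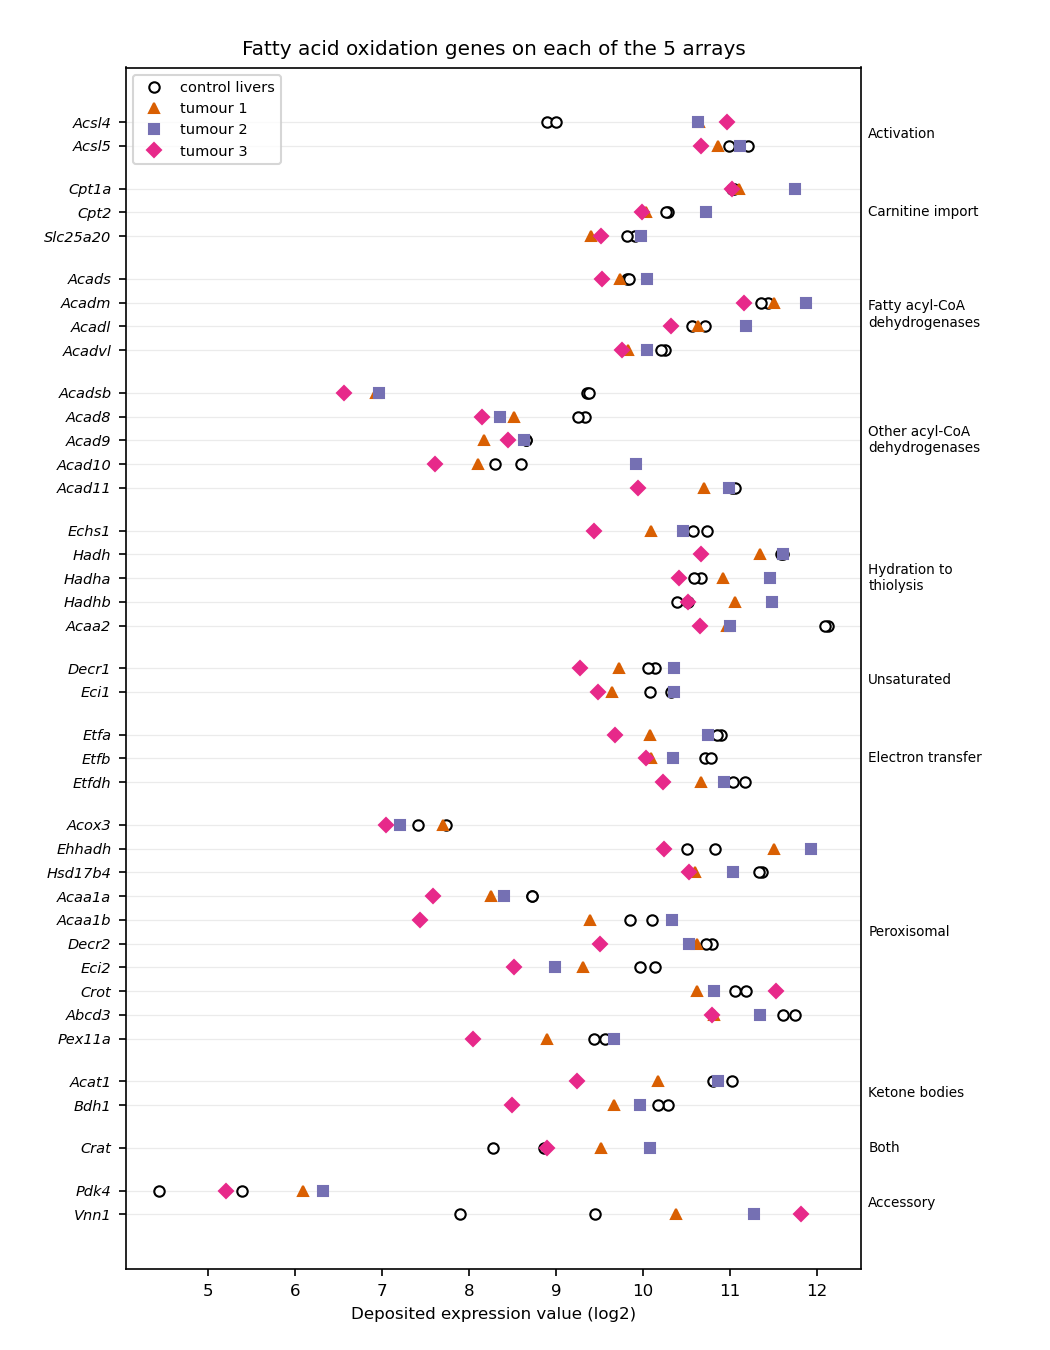
Deposited log2 expression value (x axis) of each of the 39 measured genes (rows, grouped by step) on each array, with open circles for the 2 control livers and a symbol for each of the 3 tumours. Acadsb, Acaa2 and Acsl4 show tumours set far from both controls, while tumour 3 is the lowest of the 3 tumours for 34 of the 39 genes and tumour 2 the highest for 32.

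Markers of other cells moved in the same tumours. Of 14 macrophage markers, 10 rose, 0 fell and Cd5l, Clec4f, Marco and Trem2 did not pass. Their summed level, given as log2, was 10.57 to 11.03 in the controls and 12.94 to 13.76 in the tumours. The hepatocyte markers summed to 15.35 to 15.42 in the controls and 15.07 to 15.31 in the tumours, lowest in tumour 3, with 1 of 7 fallen (Ttr). Of 6 lymphocyte markers 1 rose, Ptprc, which all leukocytes including macrophages express. The T cell genes Cd3e (0.36) and Cd3g (2.22), the B cell genes Cd79a (0.03) and Ms4a1 (−0.24), and Nkg7 (1.52) did not pass. Cd3e, Cd3g and Nkg7 nonetheless lay above both controls in all 3 tumours. Cd3g stood at 5.06, 5.61 and 8.06 in the tumours, and Nkg7 at 5.72, 5.72 and 8.16. The list summed to 7.68 to 7.73 against 9.08 to 10.47, of which Ptprc alone stood at 8.50, 8.49 and 9.58 in the tumours. Of 7 stellate cell markers 1 rose (Acta2; 10.61 to 10.63 against 9.69 to 11.60). None passed among 6 cholangiocyte markers (7.74 to 7.81 against 8.35 to 8.86), 7 endothelial (10.79 to 10.91 against 9.92 to 11.66), 4 neutrophil (6.57 to 6.6 against 6.5 to 7.09), 3 adipocyte (6.0 to 6.36 against 6.2 to 6.31) and 6 muscle markers (7.90 to 7.95 against 7.88 to 8.17). No marker is at 0, since RMA values hold none, and none of the macrophage, hepatocyte, endothelial and stellate markers was dim (below an array's lower quartile) in both groups. Dim in both were 2 lymphocyte, 2 muscle, 2 adipocyte, 1 cholangiocyte and 1 neutrophil marker. The part of these shifts in the results that follow was not tested.

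Of the 2 measured genes of activation, 1 rose. Acsl4, the synthetase that favours polyunsaturated chains, stood at log2 values of 8.89 and 9.0 in the controls and 10.64, 10.63 and 10.96 in the 3 tumours, always given in the order 1 to 3. The groups did not overlap, and the rise was 3.49-fold (log2 change 1.80, 95% confidence interval 1.43 to 2.18; limma adjusted p = 0.00316). Without control 1 or control 2 its adjusted p was 0.0628 and 0.0663. Acsl5, a synthetase of liver and intestine, stood at 11.20 and 10.99 in the controls and at 10.86, 11.11 and 10.67 in the tumours, and the groups overlapped (−0.22, −0.63 to 0.20; limma adjusted p = 0.513).

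None of the 3 measured genes of carnitine-dependent import passed the test. Cpt1a, the outer-membrane transferase that sets the rate of import in liver, stood at 11.02 and 11.05 in the controls and at 11.10, 11.74 and 11.02 in the tumours. Tumour 2 was high and tumours 1 and 3 lay close to the controls (log2 change 0.26, 95% confidence interval −0.32 to 0.83; limma adjusted p = 0.581). Slc25a20, the carnitine-acylcarnitine carrier, stood at 9.91 and 9.82 in the controls and 9.40, 9.97 and 9.52 in the tumours (−0.23, −0.71 to 0.24). Cpt2, the inner-membrane transferase, had a log2 change of −0.03. A missed threshold does not show equal levels, but the interval for Cpt1a leaves out changes of 1 log2 unit in either direction.

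The 4 dehydrogenases that open each round on straight chains had changes between −0.35 and 0.11, and none passed. Acadm, the medium-chain enzyme, stood at 11.44 and 11.36 in the controls and 11.50, 11.87 and 11.16 in the tumours, which lie on both sides of the controls (0.11, −0.43 to 0.65; limma adjusted p = 0.824). Acadvl, the very-long-chain enzyme, was the only 1 of the 4 without overlap, at 10.25 and 10.21 against 9.83, 10.05 and 9.76 (−0.35, −0.69 to −0.01; limma adjusted p = 0.186). The short-chain Acads and the long-chain Acadl had changes of −0.06 and 0.07.

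Dehydrogenases with other substrates held the largest fall of all members. Acadsb, which acts on the isoleucine product 2-methylbutyryl-CoA, stood at 9.35 and 9.38 in the controls and at 6.93, 6.96 and 6.56 in the tumours. The groups lay far apart, with control values 5.86-fold higher (log2 change −2.55, 95% confidence interval −2.95 to −2.15; limma adjusted p = 0.00141). Among the 6 called members it alone kept its call whichever of the 5 arrays was left out, with adjusted p-values up to 0.0459 (without control 2). Acad8, the isobutyryl-CoA dehydrogenase of valine breakdown, stood at 9.33 and 9.25 against 8.51, 8.36 and 8.15, again without overlap (−0.95, −1.32 to −0.59; limma adjusted p = 0.0163, and 0.16 and 0.15 without control 1 and control 2). Acad11, which acts on very long chains and 4-hydroxy acids, had 11.02 and 11.06 against 10.70, 10.99 and 9.94 (−0.50, limma adjusted p = 0.395). Acad11 was counted here with the mitochondrial genes, and its place in the cell was not analysed. Acad9, which also helps to assemble complex I, had 8.65 and 8.65 against 8.17, 8.63 and 8.45 (−0.23). Acad10 varied most in this group, with tumour values of 8.10, 9.92 and 7.61 around control values of 8.30 and 8.60.

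Of the 5 genes from hydration to thiolysis, 1 fell and 0 rose. Acaa2, the medium-chain 3-ketoacyl-CoA thiolase, stood at 12.12 and 12.09 in the controls and at 10.96, 11 and 10.65 in the tumours. The fall left the groups apart, with controls 2.35-fold higher (log2 change −1.23, 95% confidence interval −1.60 to −0.86; limma adjusted p = 0.00853, and 0.108 and 0.11 without control 1 and control 2). Hadha and Hadhb encode the alpha and beta subunits of the trifunctional protein, which carries out hydration, dehydrogenation and thiolysis on long chains. Hadhb stood at 10.51 and 10.39 in the controls and 11.06, 11.48 and 10.52 in the tumours, with tumour 3 only just above the controls (0.57, −0.12 to 1.26; limma adjusted p = 0.283, and 0.0372 without tumour 3). Its other single-gene probe set read 10.44 and 10.30 against 11.02, 11.46 and 10.47. Hadha stood at 10.67 and 10.59 against 10.92, 11.46 and 10.41 (0.30, −0.44 to 1.03; limma adjusted p = 0.624). In both Hadha and Hadhb tumour 2 was the highest of the tumours and tumour 3 the lowest. This order is not particular to the pair: tumour 2 was highest for 21 of 22 mitochondrial genes and tumour 3 lowest for 20. Echs1, the short-chain hydratase, had 10.57 and 10.73 against 10.09, 10.46 and 9.44, and Hadh, the dehydrogenase for medium and short chains, had a change of −0.39; neither passed (limma adjusted p = 0.251 and 0.464).

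Enzymes for unsaturated chains and electron transfer were low in tumours 1 and 3. Eci1, the mitochondrial enoyl-CoA isomerase, stood at 10.32 and 10.08 in the controls and 9.64, 10.35 and 9.48 in the tumours (−0.37; limma adjusted p = 0.48). Decr1, the mitochondrial dienoyl-CoA reductase, had 10.14 and 10.06 against 9.72, 10.35 and 9.27 (−0.32; limma adjusted p = 0.603). In both genes tumour 2 exceeded each control. All 3 tumours lay under both controls for each of the 3 electron transfer genes, as for 23.1% of all genes, and 0 of the 3 passed. Etfb, the beta subunit of electron transfer flavoprotein, came closest, at 10.71 and 10.78 against 10.09, 10.34 and 10.03 (−0.59, −0.93 to −0.24; limma adjusted p = 0.0543). Etfa, the alpha subunit, had 10.89 and 10.85 against 10.08, 10.74 and 9.68 (−0.70; limma adjusted p = 0.221), and Etfdh, the oxidoreductase that passes the electrons to ubiquinone, had a change of −0.50.

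**Figure D2:**
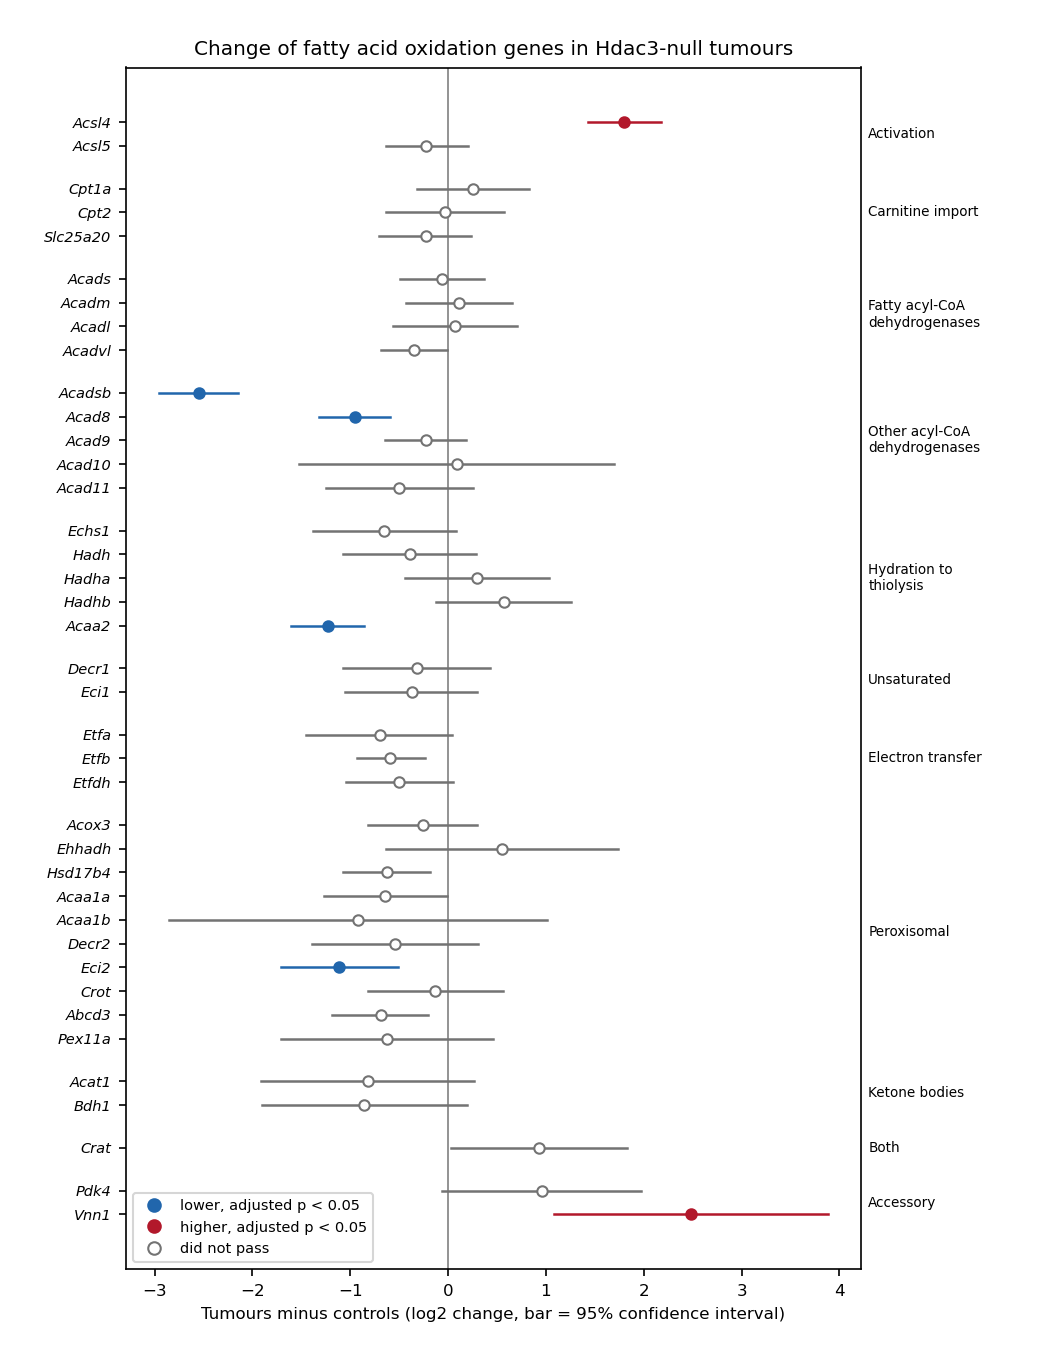
Log2 change of each measured gene, tumours minus controls (x axis), with its 95% confidence interval from limma as a bar, and rows grouped by step. Filled points passed an adjusted p of 0.05: Acadsb, Acaa2, Eci2 and Acad8 lie below 0, and Acsl4 and Vnn1 above it.

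Peroxisomal genes were low more often than they passed. Of 10, 1 fell and 0 rose, a called share of 10% that is close to the 10.6% of all genes. In 9 of 10 the change lay below 0, against 52.9% of all genes, and the median was −0.62, against −0.34 for the 22 mitochondrial genes (−0.30 and −0.19 without tumour 3). The difference between these medians was not tested. Eci2, the peroxisomal enoyl-CoA isomerase, which is also found in mitochondria, stood at 10.14 and 9.96 in the controls and 9.31, 8.99 and 8.52 in the tumours. The groups did not overlap (log2 change −1.11, 95% confidence interval −1.71 to −0.51; limma adjusted p = 0.0422). That call was lost without control 1, control 2 or tumour 2 (adjusted p = 0.271, 0.228 and 0.0985), and with quantile normalisation repeated (0.055) or against a 1.2-fold change (0.0902).

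Among the peroxisomal genes that did not pass, Acaa1b, a thiolase, had the widest spread, at 10.10 and 9.85 in the controls and 9.39, 10.33 and 7.44 in the tumours (−0.92, −2.85 to 1.01; limma adjusted p = 0.551). Without tumour 3 the Acaa1b change was −0.11. Its near-identical copy Acaa1a had 8.72 and 8.72 against 8.25, 8.40 and 7.58 (−0.64), and values of the pair are uncertain because probes can be shared. Tumour 3 was lowest in both. Abcd3, which imports acyl-CoA into peroxisomes, had 11.74 and 11.61 against 10.82, 11.34 and 10.79 (−0.69, −1.19 to −0.20; limma adjusted p = 0.0896, and 0.0371 without tumour 2). Hsd17b4 and Ehhadh encode the D- and L-bifunctional enzymes, which both carry out the middle steps of a round. Hsd17b4 had 11.37 and 11.33 against 10.60, 11.03 and 10.53 (−0.62; limma adjusted p = 0.0913, and 0.0443 without tumour 2). Ehhadh went the other way in tumours 1 and 2, at 10.83 and 10.50 against 11.50, 11.93 and 10.24 (0.55, −0.63 to 1.74; limma adjusted p = 0.56). Without tumour 3 the Ehhadh change was 1.05 (adjusted p = 0.0256). Decr2 and Pex11a, for peroxisomal dienoyl-CoA reduction and peroxisome division, had changes of −0.54 and −0.62, the oxidase Acox3 −0.26 and the carnitine octanoyltransferase Crot −0.13.

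The 2 ketone body genes had a median change of −0.84, which was −0.41 without tumour 3, and neither passed. Acat1, the mitochondrial acetoacetyl-CoA thiolase, stood at 11.02 and 10.80 in the controls and 10.17, 10.86 and 9.24 in the tumours, so that tumour 2 lay between the controls (−0.82, −1.91 to 0.27; limma adjusted p = 0.331; −0.40 without tumour 3). Bdh1, which reduces acetoacetate to 3-hydroxybutyrate, stood at 10.29 and 10.17 against 9.67, 9.96 and 8.49, without overlap (−0.86, −1.90 to 0.19; limma adjusted p = 0.288; −0.41 without tumour 3). Tumour 3 was lowest for both.

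Vnn1, which frees pantothenate for coenzyme A and is a known PPAR alpha target, stood at 9.45 and 7.89 in the controls and 10.38, 11.27 and 11.81 in the tumours. Tumours lay above both controls, which themselves lay far apart, and the change was 2.48 (1.08 to 3.88; limma adjusted p = 0.0483). The call did not survive leaving out control 1, control 2, tumour 2 or tumour 3 (adjusted p = 0.107, 0.279, 0.12 and 0.057), or a replicate block (0.0752). It was also lost with quantile normalisation repeated (0.0504), all probe sets as features (0.0542), a variance trend (0.0646) and a test against 1.2-fold (0.0767). Crat, the carnitine acetyltransferase of mitochondria and peroxisomes, had 8.86 and 8.27 against 9.52, 10.08 and 8.89 (0.93; limma adjusted p = 0.186, and 0.0378 without tumour 3). Pdk4, the kinase that spares pyruvate from oxidation, stood at 5.39 and 4.44 against 6.09, 6.32 and 5.21, where tumour 3 lay between the controls (0.96; limma adjusted p = 0.221).

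The tumours held a common order across the mitochondrial genes. Tumour 2 was the highest of the 3 tumours for 21 of 22 mitochondrial genes and tumour 3 the lowest for 20 of 22, whereas over all genes these shares were 26.1% and 28.4% (28.9% and 31.9% with the dimmest 40% of genes left out). Relative to the control mean, the median mitochondrial gene stood at −0.39 in tumour 1, 0.06 in tumour 2 and −0.71 in tumour 3, with 18, 10 and 21 of the 22 genes below that mean. Peroxisomal genes stood at medians of −0.54, −0.31 and −1.01, and the 2 ketone body genes at −0.65, −0.16 and −1.70. Over all 39 members the median range among the tumours was 0.86 log2 units, against 0.33 for all genes and 0.40 without the dimmest 40%. This is a description of 3 tumours, since genes of 1 tumour share its RNA. Beside it, tumour 3 had the lowest summed hepatocyte markers (15.07, against 15.31 and 15.28 in tumours 1 and 2) and the highest summed macrophage markers (13.76, against 13.46 and 12.94). Summed endothelial markers (9.92, against 11.66 and 10.97) and stellate markers (9.69, against 11.60 and 10.80) were also lowest in tumour 3. Ptprc and the summed lymphocyte (10.47) and cholangiocyte markers (8.86) were highest there. The part of these cell markers in the order of the tumours was not tested.

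**Figure D3:**
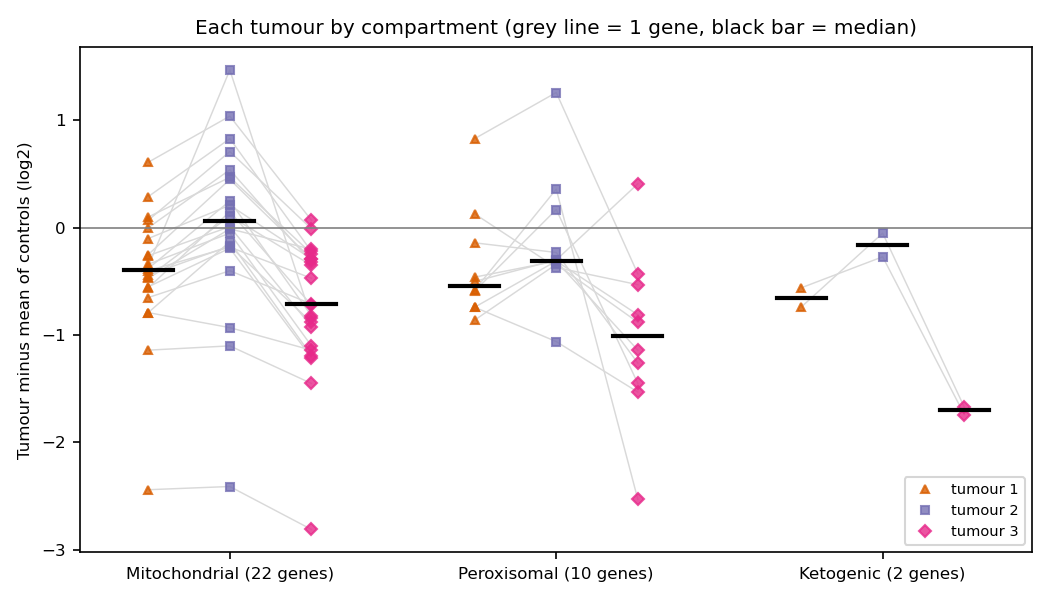
Each tumour's log2 value minus the mean of the 2 controls (y axis) for the 22 mitochondrial, 10 peroxisomal and 2 ketone body genes. Grey lines join the values of 1 gene and black bars are medians; tumour 2 lies closest to the controls and tumour 3 lowest, with mitochondrial medians of −0.39, 0.06 and −0.71 in tumours 1, 2 and 3.

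Other genes of the pathway were read from a list of 76, of which 67 were measured. Among these, 18 fell and 1 rose (28.4% called, against 10.6% of all genes), and the median change was −0.61. Like the members, this list was chosen with earlier results of these data known, so shares called in it or its groups are not independent of those results. Ppara stood at 10.28 and 10.33 in the controls and 9.02, 9.43 and 8.28 in the tumours, well apart, with a change of −1.40 (−2.20 to −0.59) that missed the threshold at a limma adjusted p of 0.0508. Under the alternatives tried this p ranged from 0.0144, without tumour 3, to 0.288, without control 2. Of the 10 regulators and targets, 1 fell: Sirt3, the mitochondrial deacetylase, at 8.51 and 8.33 against 7.24, 7.56 and 6.63 (limma adjusted p = 0.041). Fgf21, a fasting hormone and PPAR alpha target, had 5.46 and 4.77 against 6.72, 9.10 and 7.56 (2.68; limma adjusted p = 0.0598, and 0.0273 and 0.0477 without tumour 1 and tumour 2).

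The group of other mitochondrial genes in this wider list, which also holds acyl-CoA synthetases, had 6 of 12 fallen and 0 risen, where 4.96% of all genes fell. Hsd17b10, of isoleucine breakdown, stood at 11.16 and 10.96 against 9.68, 10.01 and 9.61 (−1.30; limma adjusted p = 0.01), and Auh, of leucine breakdown, at 9.01 and 9.05 against 7.71, 7.44 and 7.98 (−1.32; limma adjusted p = 0.0117). Mmut, the methylmalonyl-CoA mutase, fell by 1.27. Pccb and Mcee, which act before it in the breakdown of propionyl-CoA from odd chains and amino acids, fell by 1.34 and 1.24. Acsm5, a medium-chain synthetase, fell by 1.78. Pcca, whose product is the partner subunit of that of Pccb, had 9.37 and 9.22 against 8.27, 8.17 and 7.21 and did not pass (−1.41; limma adjusted p = 0.0502).

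Of 15 other peroxisomal genes, 5 fell and 0 rose, where 4.96% of all genes fell. Amacr, the racemase for branched-chain acids and bile acid precursors, stood at 9.38 and 9.07 against 7.42, 7.53 and 6.99 (−1.91; limma adjusted p = 0.00576), and Phyh, which starts the alpha oxidation of phytanic acid, at 12.36 and 12.49 against 11.47, 11.23 and 11.24 (−1.11; limma adjusted p = 0.00898). Both are low in all 3 tumours. Mpv17l and Pxmp2 encode peroxisomal membrane proteins. Mpv17l stood at 8.04 and 8.43 against 5.68, 5.26 and 5.71 (−2.68; limma adjusted p = 0.00244), and Pxmp2 at 10.48 and 10.65 against 8.31, 8.05 and 6.79 (−2.84; limma adjusted p = 0.0167). Nudt7, a coenzyme A hydrolase, fell by 2.59. Of 12 peroxins, which build peroxisomes, 3 fell: Pex16 (−1.2), Pex11g (−1.06) and Pex6 (−0.98). In 11 of the 12, all 3 tumours lay under both controls, as for 23.1% of all genes, Pex19 being the exception. Of 3 further ketone body genes, 1 fell and 0 rose, with a median change of 1.26. Bdh2, an NAD-dependent dehydrogenase, stood at 8.96 and 9.21 against 5.43, 5.48 and 4.93 (−3.81, −4.31 to −3.30; limma adjusted p = 0.000913). The others lay above both controls in all 3 tumours without passing. Oxct1, which lets tissues use ketone bodies, had 4.98 and 4.77 against 6.12, 6.06 and 7.39 (1.65; limma adjusted p = 0.0616), and Slc16a1, a carrier of lactate and ketone bodies, had 8.37 and 7.89 against 8.85, 9.60 and 9.71 (1.26; limma adjusted p = 0.0528).

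In uptake and carnitine supply, Slc27a5, the liver transporter and bile acid-CoA ligase, fell by 2.18, Bbox1, the last enzyme of carnitine synthesis, fell by 1.36, and the scavenger receptor gene Cd36 rose from 9.71 and 8.42 to 10.79, 11.29 and 10.78 (limma adjusted p = 0.0363). Macrophages also express Cd36, and 10 of the 14 macrophage markers rose, as given above; their part in the Cd36 result was not tested. None of 3 malonyl-CoA genes and none of 4 omega oxidation genes passed. Among the latter, Cyp4a12a and Cyp4a12b are near-identical copies whose values are uncertain. For the other omega oxidation genes the controls themselves lay far apart, at 9.45 and 7.4 for Cyp4a10 and 9.69 and 6.28 for Cyp4a14. Of the 19 calls in this wider list, Bdh2 alone held with either control left out, Mpv17l held without control 1 only, and the other 17 were lost without either. Sirt3, Bbox1 and Pccb were also lost without tumour 1, Slc27a5, Nudt7 and Mcee without tumour 2, and Cd36 without either of these.

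**Figure D4:**
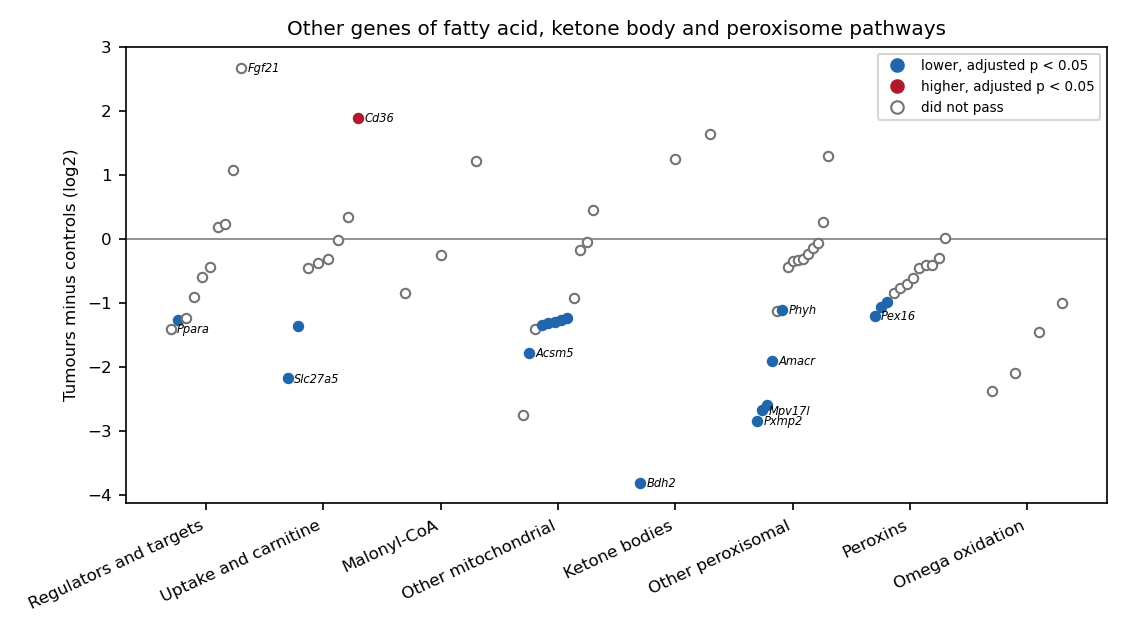
Log2 change, tumours minus controls (y axis), of the 67 measured genes of the wider list, grouped by role (x axis); filled points passed a limma adjusted p of 0.05. Of these, 18 lie below 0, with Bdh2 lowest at −3.81, and Cd36 is the single filled point above 0.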

How the data were processed

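For each of 5 mouse gene arrays the authors deposited log2 expression values by probe set. Per the submitters' processing notes, GCOS and RMA were used. Their versions and settings, and the genome build, are not stated in the labels used here. RMA can understate large changes. Probe sets were named through the platform's gene table: of 28853, 21789 had 1 symbol, 1621 several and 5443 none, and the last 2 kinds were left out. The probe set with the highest mean stood for a gene, without a filter on dim genes. Entrez identifiers of 19856 of the 19938 genes were found in a gene table of GRCm38.p6, and 0 symbols needed an update. No column of another sample was present.

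Tumour minus control differences were fitted over all 19938 genes with lmFit and eBayes of limma 3.58.1 (R 4.3.3), all 5 arrays, no covariate, with 3 residual and 2.98 prior degrees of freedom. Two-sided p-values were adjusted by Benjamini-Hochberg. An exact permutation test of 2 against 3 arrays cannot reach 0.05. The labels call the arrays biological replicates. On simulated arrays of the same 19938 genes, the fit called 95.5% of genes given a log2 change of 2, 50.9% at a change of 1 and 1.04% at 0.5, and 8.43% of its calls were false. Each simulated run changed a far smaller share of genes than the 10.6% called in the real arrays. The adjusted p depends on that share, so these rates need not hold for the real arrays.

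The members and lists were chosen with earlier results of these data known. All called members were described with every array's value, with up to 2 others per step, Cpt1a, Acadm, Hadha, Ehhadh and Acat1. The wider list was described through its 10 smallest p-values and Ppara. Other changes named from either list, the motifs other than the repeat of AGGTCA, and the order of the tumours were chosen after values were seen. Same-numbered arrays did not deviate together (correlations of 0.004 and −0.013), so replicate numbers were not taken as pairs. Peroxisomal targeting ends of proteins were not analysed here. Python 3.11.15, pandas 2.3.3 and matplotlib 3.10.9 were used for tables and figures.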

Additional observations from a re-analysis of the deposited data

How the results depend on the processing

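The calls rest on the shared spread and on both controls. With an ordinary test per gene without moderation, 0 members rose, 0 fell, and 6 of all genes rose and 12 fell. Leaving out each array in turn gave 0 to 4 members risen and 1 to 5 fallen, 62 to 1465 of all genes risen and 46 to 1254 fallen, and 0 to 3 of the wider list risen and 1 to 25 fallen. Of members, 1 rose with quantile normalisation repeated, all probe sets as features, a variance trend with robust settings, a test against a 1.2-fold change, or an adjusted p under 0.01, and 7 fell at an adjusted p under 0.1 and 2 under 0.01. Over all genes, 1727 rose and 1525 fell with array weights, 654 and 499 against a 1.2-fold change, 1743 and 1583 at an adjusted p under 0.1, and 291 and 214 under 0.01. In the wider list, 2 rose with quantile normalisation repeated or the variance trend, 3 with the dimmest 40% left out, 6 with array weights, 4 with the replicate block, 5 at an adjusted p under 0.1, and 0 against a 1.2-fold change, without moderation or under 0.01. There 0 fell without moderation and 4 under 0.01. Hdac3 was −1.62 with adjusted p = 0.0704 without moderation, and −1.71 to −1.54 in the fits on 4 arrays. The median of Pdk4 and Vnn1 moved from 1.72 to between 1.09 and 2.35 with arrays left out. The median of all members lay between −0.60 and −0.19 with arrays left out. The other step medians shifted by less than the standard deviation of the 3 tumours' own medians under every setting run. Leaving out 1 of 3 tumours can hardly exceed that limit, so it cannot show that these medians are stable. Without tumour 3 the ketone body median went from −0.84 to −0.41, and that of hydration to thiolysis from −0.39 to −0.12. With arrays left out, medians of carnitine import (−0.27 to 0.10) and straight-chain dehydrogenases (−0.18 to 0.16) took either sign. The causes were not tested.

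The replicate block gives tumour 3 a level of its own, so it drops out of that contrast; 2 members rose and 4 fell, Ehhadh passed at 1.05 (adjusted p = 0.0439), Vnn1 did not at 2.15 and Ppara did at −1.08 (0.0183). Etfb passed with quantile normalisation repeated, dim genes left out or array weights (0.0444, 0.049 and 0.0366). When arrays were given a common median, the median of all genes went from −0.02 to −0.08, and Pex19 was the only measured gene of either list to change sign (0.01 to −0.04). Fits with a single control take its spread from the tumours. On the simulated arrays, where few genes were changed, changes of 0.5 log2 units were seldom called.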
